A study of Mus musculus with 4 samples.

Results

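The 10 genes described here encode the dual-specificity phosphatases that act on MAP kinases: Dusp1, Dusp2, Dusp4, Dusp5, Dusp6, Dusp7, Dusp8, Dusp9, Dusp10 and Dusp16. They were taken by gene name from a table of 55414 genes, and all 10 were found. The RNA came from the cerebral cortex of C57BL/6J mice at postnatal day 1. Both groups carried floxed alleles of Mkk7 on both chromosomes (Mkk7flox/flox). The 2 libraries labelled Control had no Cre, and the 2 labelled cKO carried Emx1-Cre in addition. Emx1-Cre is active in dorsal telencephalic progenitors and thus reaches cortical excitatory neurons and much of the glia. Interneurons, vessels, microglia and meninges in the same bulk tissue keep their floxed alleles for the most part. No label ties a library to an animal or litter, so p-values measure the spread between these libraries, which may be partly technical.

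MAP kinases are switched on when a threonine and a tyrosine in their activation loop are phosphorylated by upstream kinases. Dual-specificity phosphatases remove both phosphates and so end the signal. The family is commonly sorted into nuclear enzymes whose genes are induced quickly by growth factors, stress or neuronal activity (Dusp1, Dusp2, Dusp4 and Dusp5), cytoplasmic enzymes that prefer ERK (Dusp6, Dusp7 and Dusp9), and enzymes that prefer JNK and p38 (Dusp8, Dusp10 and Dusp16). JNK, the kinase downstream of MKK7, is a preferred substrate of the third class and is also acted on by nuclear members such as Dusp1 and Dusp4. Several of these genes are themselves transcribed in response to MAP kinase signals, which makes them parts of a negative feedback.

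The stretches of promoter below show sites for signal-dependent transcription factors. They come from every member with a match before the annotated start and were not picked by genotype result. RefSeq windows of 300 bases (250 before and 50 after the annotated start, build GRCm38.p6, while the gene coordinates of the deposited table are on GRCm39) were found for 8 of the 10 members, without Dusp4 and Dusp9. They were searched on both strands for TGACGTCA, the full site of CREB and ATF factors, and for its part TGACG outside such a full site. They were also searched for TGANTCA, a broader pattern that includes the site of AP-1, and for the CArG box, the site of serum response factor. Capitals mark the matches, and each stretch is read 5′ to 3′ on the strand of its gene.
Dusp1, chr17:26508600-26508671, minus strand: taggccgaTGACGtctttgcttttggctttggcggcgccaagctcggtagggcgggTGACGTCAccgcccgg
Dusp8, chr7:142095332-142095399, minus strand: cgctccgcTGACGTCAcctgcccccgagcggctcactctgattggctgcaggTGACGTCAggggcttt
Dusp5, chr19:53529055-53529102, plus strand: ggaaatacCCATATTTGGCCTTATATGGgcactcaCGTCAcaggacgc
Dusp16, chr6:134792686-134792706, minus strand: gtttcaagTGACGccatctct

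Dusp8 held the full TGACGTCA at 2 places, from -107 to -100 and from -63 to -56 relative to the start. Dusp1 held it once, from -143 to -136, with a TGACG further upstream, from -191 to -187. No other member window held the full site, which 1.79% of all 32851 windows of that length contain. Dusp5 held 2 adjoining CArG boxes, from -82 to -73 and from -72 to -63, and 1.63% of all windows contain at least 1. A TGACG on either strand was also found in Dusp5, Dusp16 and Dusp2; it is common and occurs in 20.8% of windows, here with the full sites included. No member window held TGANTCA, against 7.81% of all windows. The windows of Dusp6, Dusp7 and Dusp10 held none of the searched sites. These matches describe letters and do not show that a factor binds there.

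The libraries held 19421470 to 22511175 counts each. The library cKO 3 was male and the rest female: Xist had 0 counts in cKO 3 and 1004 to 1218 elsewhere, and the Y-linked gene Ddx3y had 985 counts in cKO 3 and 0 elsewhere. Map2k7, the gene of MKK7, was not lower in cKO, with 38.4 and 30.4 counts in a library scaled to 1000000 (CPM) in Control and 47.9 and 48.2 CPM in cKO (edgeR adjusted p = 0.428). These sums over the whole gene do not show whether the floxed exons were lost, so each direction given for cKO rests on the labels. All 12 genes of a list of cortical excitatory neurons were detected in every library.

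The levels of the family, in TPM (transcripts scaled to a fixed total per library, which allows for transcript length), spanned a wide range. Dusp8, a JNK and p38 phosphatase known for its expression in brain, stood highest in every library, at 86.8 and 75.5 TPM in Control 2 and Control 3 and at 54.5 and 75.0 TPM in cKO 2 and cKO 3. Its lowest library lay above the highest library of any other member. Dusp6, the ERK phosphatase of growth factor feedback, followed with 33.9 and 44.3 TPM in Control and 42.4 and 37.5 TPM in cKO. Dusp1, a stress-induced and activity-induced phosphatase, stood at 39.3 and 38.6 TPM in Control and at 30.1 and 31.4 TPM in cKO. The ranges of Dusp6 and Dusp1 overlapped, and in Control 2 Dusp1 ranked above Dusp6. Dusp7, a close relative of Dusp6, had the smallest ratio of highest to lowest library, with 24.2 to 27.2 TPM over the 4 libraries.

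The remaining members were lower. Dusp2, an inducible phosphatase best known from immune cells, ranged from 12.8 to 16.8 TPM, and Dusp4, an inducible phosphatase of ERK and JNK, from 10.1 to 15.4 TPM; these ranges overlapped. Dusp5, a nuclear phosphatase that acts on ERK, ranged from 2.38 to 6.61 TPM and overlapped with Dusp10, at 1.63 to 3.48 TPM. Dusp16, a phosphatase that prefers JNK, ranged from 0.142 to 0.864 TPM. Dusp9, an X-linked ERK phosphatase known from placenta, was close to absent, with 13 counts in all 4 libraries. Of the 9 neighbouring pairs in this order, 5 did not overlap over the libraries and 4 did.

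**Figure D1:**
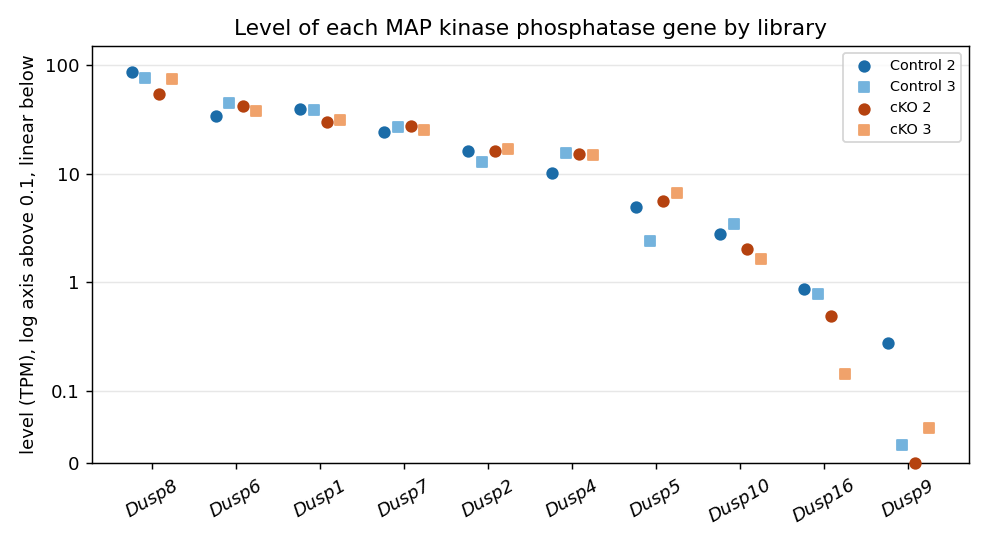
Level of each of the 10 genes in TPM (vertical axis, logarithmic above 0.1 and linear below) in the 4 libraries, 1 point per library, ordered by the mean. Dusp8 leads with 54.5 to 86.8 TPM, while Dusp9 reaches at most 0.274 TPM and is at 0 in cKO 2.

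Summed over the classes, the JNK and p38 phosphatases made up 41.2% and 36.3% of the family's TPM in Control 2 and Control 3, and 29.4% and 36.7% in cKO 2 and cKO 3. Dusp8 supplied nearly all of it. The share overlapped between the groups, with cKO 2 alone standing low. The nuclear inducible class held 32.1% and 31.5% in Control and 34.6% and 33.3% in cKO, so that its share was slightly higher in both cKO libraries. Its summed TPM was not higher and overlapped, at 70.5 and 69.2 in Control and 67.1 and 69.8 in cKO. The higher share thus goes with a lower family total. The cytoplasmic class held 26.6% to 35.9%, with overlap. The family as a whole summed to 219 and 220 TPM in Control and to 194 and 209 TPM in cKO. In CPM, which do not use transcript length, the family sums overlapped, at 391 and 405 in Control and 397 and 365 in cKO.

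Genotypes were compared in CPM, which do not use transcript length, with edgeR's quasi-likelihood test over 17017 genes that passed a filter on low counts. Dusp9 did not pass it. The counts behind the tested members, summed over the 4 libraries, ran from 96 for Dusp16, 401 for Dusp10 and 655 for Dusp5 to 4990 for Dusp6 and 14444 for Dusp8, so the values of the last 2 carry the least counting error. Of the 9 tested members none was called at an adjusted p below 0.05, against 0.047% of all tested genes. DESeq2, which called 1.03% of its genes, and limma-voom, which called 0.047%, called none of the members either. At an unadjusted p below 0.05 there was 1 member, Dusp16 (edgeR), where 10.9% of all tested genes reached this. Dusp16 passed the filter only with its Control libraries, where it is higher. Control and cKO libraries were fully separated in 6 of the 9, against 44.1% of all tested genes. Of these, 4 were lower in cKO (Dusp1, Dusp8, Dusp10 and Dusp16; 22.2% of all tested genes) and 2 were higher (Dusp2 and Dusp5; 22% of all tested genes). With 9 genes and 2 libraries per group, these counts describe the members and are not a test of the family.

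The 3 genes of the JNK and p38 class each had both cKO libraries below both Control libraries, and none passed the test. Dusp16 (ENSMUSG00000030203.18; chromosome 6, 134692431 to 134769588, GRCm39) stood at 31 and 47 counts in Control 2 and Control 3 and at 6 and 12 counts in cKO 2 and cKO 3, or 1.98 ± 0.571 against 0.421 ± 0.148 CPM (SD, n = 2). The lowest Control library, at 1.58 CPM, lay well above the highest cKO library, at 0.525 CPM, on few reads. The log2 fold change was -2.21 (SE 0.77, 95% interval -4.02 to -0.40; edgeR adjusted p = 0.405). Dusp16 reached the minimum of the filter on low counts in Control 2, Control 3 and cKO 3 and missed it in cKO 2. The cKO libraries alone would not have passed the filter, so Dusp16 entered the test through Control, where it is higher. Its p-value, its interval and the separation of its groups carry this selection and are no support for a decrease.

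Dusp10 (ENSMUSG00000039384.9; chromosome 1, 183745499 to 183807833), a phosphatase of JNK and p38, had 5.55 and 7.0 CPM in Control and 4.37 and 3.11 CPM in cKO. The gap between the groups was narrower than the gap between the libraries of either group. Its log2 fold change was -0.75 (SE 0.40, 95% interval -1.68 to 0.18; edgeR adjusted p = 0.537). Dusp8 (ENSMUSG00000037887.12; chromosome 7, 141633227 to 141649580) had 194 and 183 CPM in Control and 168 and 167 CPM in cKO. The 2 cKO libraries were nearly equal and both lay below Control, by a small amount (log2 fold change -0.17, SE 0.11, 95% interval -0.43 to 0.09; edgeR adjusted p = 0.624). Read as folds, the interval for Dusp8 runs from 0.74 to 1.07, whereas for Dusp10 it runs from 0.313 to 1.13, which leaves room for a much larger decrease. In TPM, unlike in CPM, the 2 cKO libraries differed for Dusp8, with cKO 2 at 54.5 TPM and cKO 3 at 75.0 TPM, close to the 75.5 TPM of Control 3.

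With each library left out in turn, the log2 fold change of Dusp16 lay between -2.63 and -1.89. That of Dusp10 lay between -1.01 and -0.52, and that of Dusp8 between -0.21 and -0.13. The groups of these 3 genes do not overlap, so leaving out a library could hardly turn the sign. The kept sign is thus no support for a decrease. In the same libraries a list of 16 genes of striatal neurons, 1 of which (Rxrg) fell past the threshold, had a summed level of 661 and 472 CPM in Control and 233 and 211 CPM in cKO, none of them at 0 in a library. A list of 12 interneuron genes summed to 1096 and 1016 CPM against 928 and 799 CPM. The 12 cortical excitatory genes summed to 1457 and 1687 CPM against 1927 and 1862 CPM. The part of such differences in cell makeup in the phosphatase values was not tested. In bulk tissue, fewer cells of a type and less RNA per cell cannot be told apart.

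**Figure D2:**
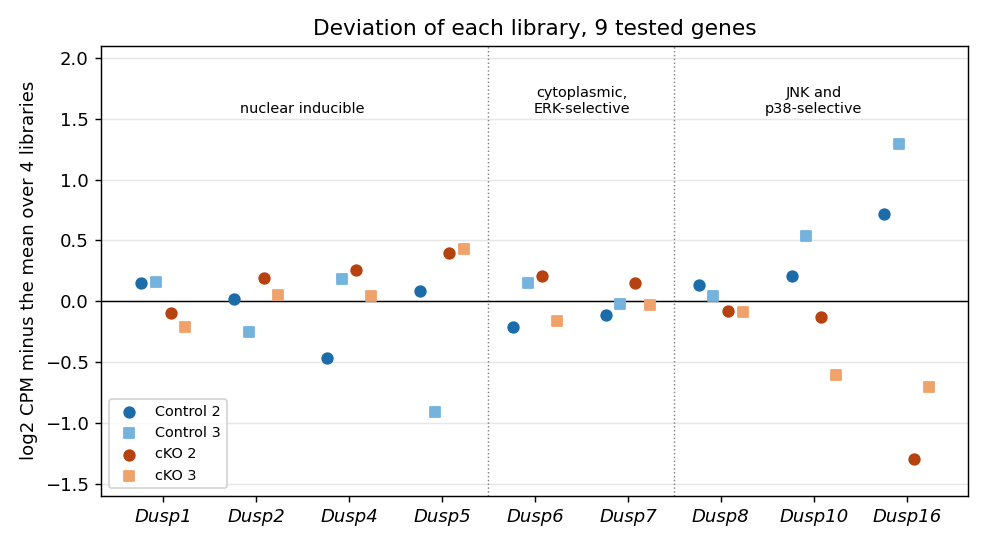
Deviation of each library from the gene's own mean over the 4 libraries, in log2 CPM, for the 9 tested members grouped by class. For Dusp1, Dusp8, Dusp10 and Dusp16 both cKO points lie below both Control points, while Dusp5 has a single low library, Control 3, at -0.91.

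Among the nuclear inducible class, Dusp1 was lower and Dusp5 and Dusp2 higher in cKO, and no gene passed. Dusp1 (ENSMUSG00000024190.8; chromosome 17, 26724564 to 26781102) stood at 48.7 and 49.3 CPM in Control and at 41.0 and 38.1 CPM in cKO. The libraries within a group lay close together, and the groups did not overlap (log2 fold change -0.31 with an SE of 0.16, 95% interval -0.69 to 0.07; edgeR adjusted p = 0.529). The annotated span of Dusp1 overlaps 640 bases of Ergic1 on the opposite strand, a gene with 5430 to 7333 counts. The library kit does not mark strand, so reads in that overlap could not be assigned by strand.

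Dusp5 (ENSMUSG00000034765.7; chromosome 19, 53517540 to 53530862) stood at 7.94 and 3.96 CPM in Control and at 9.95 and 10.2 CPM in cKO. Control 2 lay closer to the cKO libraries than to Control 3. The log2 fold change was 0.76 (SE 0.39, 95% interval -0.16 to 1.67; edgeR adjusted p = 0.529), and it was 1.34 without Control 2 and 0.34 without Control 3. Dusp5 was the only member with estimated counts that were not whole, in 3 libraries, and it overlaps 547 bases of the antisense transcript Gm50394, which had at most 6 counts.

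Dusp2 had 14.8 and 12.3 CPM in Control and 16.7 and 15.2 CPM in cKO. Its groups were separated by less than the spread within Control (log2 fold change 0.23, SE 0.24, 95% interval -0.34 to 0.80; edgeR adjusted p = 0.765). Dusp4 had 18.5 and 29.0 CPM in Control and 30.7 and 26.3 CPM in cKO, so that the groups overlapped and Control 2 alone was low. Its log2 fold change of 0.26 (SE 0.26; edgeR adjusted p = 0.750) turned to -0.03 without Control 2.

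The cytoplasmic ERK phosphatases did not separate the groups. Dusp6, often read as a gauge of ERK activity, had 53.1 and 68.3 CPM in Control and 70.9 and 55.0 CPM in cKO. Each group held 1 high and 1 low library, and the log2 fold change of 0.05 (SE 0.19, 95% interval -0.40 to 0.51; edgeR adjusted p = 0.953) changed sign without Control 2 and without cKO 2. Dusp7 had 46.4 and 49.3 CPM in Control and 55.5 and 48.9 CPM in cKO (a log2 fold change of 0.12, SE 0.16, 95% interval -0.25 to 0.50; edgeR adjusted p = 0.817). These intervals, read as folds, run from 0.756 to 1.42 for Dusp6 and from 0.84 to 1.42 for Dusp7.

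Dusp9 (ENSMUSG00000031383.9; chromosome X, 72683025 to 72687120) had 10 counts in Control 2, 1 in Control 3, 0 in cKO 2 and 2 in cKO 3. Of its 13 counts, 10 thus came from 1 library. The ratio of cKO to Control was 0.171 after scaling, with a 95% exact binomial interval of 0.0184 to 0.784 that covers counting error only and not the spread between libraries. A count of 0 in cKO 2 allows up to 0.158 CPM, at 3 counts.

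**Figure D3:**
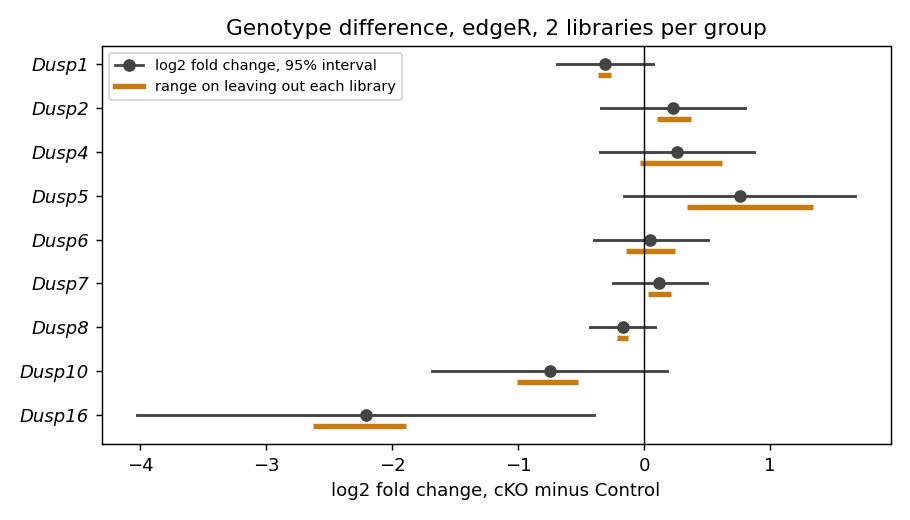
Log2 fold change of cKO against Control for the 9 tested members (points) with the 95% interval of the edgeR fit (grey lines) and the range when each library is left out in turn (orange bars). The interval for Dusp16 alone lies off 0, at -4.02 to -0.40, before adjustment over all genes. Dusp16 passed the filter on low counts only with its Control libraries.

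Among the kinases that these phosphatases act on, none of the 10 tested MAP kinase genes passed the test, and their median log2 fold change was 0.01, against -0.00 for all tested genes. Mapk8, a JNK gene, had the smallest p of them, at 56.8 and 52.3 CPM in Control and 55.0 and 65.7 CPM in cKO, with overlapping groups. Mapk14, the gene of p38 alpha, stood at 46.8 and 52.0 CPM in Control and 39.1 and 49.6 CPM in cKO.

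Of 16 other phosphatases that can act on MAP kinases, 14 were tested and none passed, with 7 positive and 7 negative fold changes. Both groups were fully separated in 4 of the 14, 1 higher and 3 lower, where 44.1% of all tested genes are separated. Dusp26, an atypical member enriched in neurons, stood at 144 and 135 CPM in Control and 111 and 106 CPM in cKO (a log2 fold change of -0.36, SE 0.12; edgeR adjusted p = 0.399). Dusp14, another atypical member, stood at 18.3 and 18.2 CPM in Control and 27.7 and 25.8 CPM in cKO (a log2 fold change of 0.56, SE 0.20; edgeR adjusted p = 0.415). In both genes the gap between the groups was wider than the gap within either, and both missed the threshold over all genes.

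Of 16 listed genes of ERK feedback, which are induced by ERK or restrain it as Dusp6 does, 14 were tested. None passed, and the median log2 fold change was 0.14. Fold changes were positive in 10 and negative in 4, where 49.8% of all tested genes were positive. Both groups were fully separated with cKO higher in 7 and lower in 3 of the 14. Of all tested genes, 22% were separated with cKO higher and 22.2% with cKO lower. Spry4, which encodes a Sprouty inhibitor of growth factor signalling, had 8.71 and 7.21 CPM in Control and 15.3 and 11.5 CPM in cKO (a log2 fold change of 0.75, SE 0.29; edgeR adjusted p = 0.431). Both cKO libraries were above Control for Spry4, which was not the case for Dusp6 in the same libraries.

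Immediate early genes respond to many of the same stimuli as the inducible phosphatases. Of 27 tested, none passed, 12 were positive and 15 negative, where 49.8% of all tested genes were positive, and the median log2 fold change was -0.25. Both groups were fully separated in 15 of the 27, with 5 higher and 10 lower in cKO, where 44.1% of all tested genes are separated, 22% higher and 22.2% lower. Egr1, a transcription factor gene induced through serum response factor, had 38.2 and 29.7 CPM in Control and 21.6 and 19.4 CPM in cKO (a log2 fold change of -0.73, SE 0.21; edgeR adjusted p = 0.360). Nr4a1, the gene of an inducible nuclear receptor, had 19.1 and 26 CPM in Control and 11.4 and 13.9 CPM in cKO (a log2 fold change of -0.83, SE 0.26; edgeR adjusted p = 0.379). For both genes the cKO libraries lay below Control, as for Dusp1, whereas the inducible Dusp5, Dusp2 and Dusp4 had positive fold changes. No comparison of these genes with each other was tested.

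**Figure D4:**
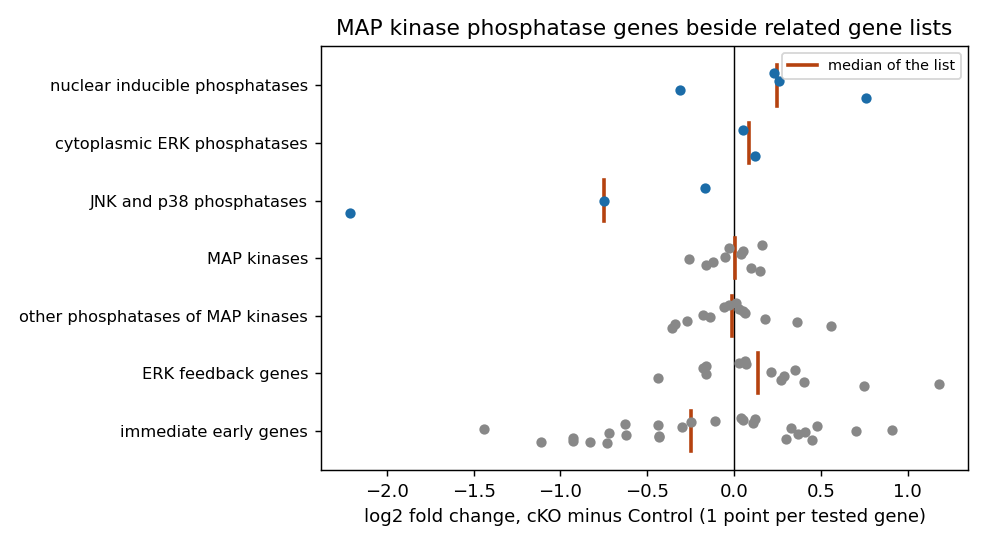
Log2 fold change of cKO against Control for each tested gene of the 3 phosphatase classes (blue) and of 4 related lists (grey), with the median of each list as an orange bar. The 10 MAP kinases lie close to 0 with a median of 0.01, while the 27 immediate early genes spread to both sides with a median of -0.25.

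Genes with the most similar course over the 4 libraries were sought for Dusp8, the member with the highest level, and for Dusp5, the member with the widest range among those with a mean of at least 5 CPM. The measure was the distance between log2 CPM values centred on each gene's mean, over 11914 genes. Closest to Dusp8 were 0610009B22Rik, Slc4a3, an anion exchanger gene, and Gpatch8, at distances of 0.018 to 0.0283. Slc4a3 stood at 73.7 and 70.1 CPM in Control and 64.1 and 65.0 CPM in cKO. Closest to Dusp5 were Slc12a7, a potassium and chloride cotransporter gene, Ntn4, a netrin gene, and Stard4, a sterol transfer gene, at distances of 0.0662 to 0.125. Slc12a7 stood at 15.3 and 7.97 CPM in Control and 18.7 and 20.1 CPM in cKO, with Control 3 low as for Dusp5. Such likeness rests on 4 libraries alone.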

How the data were processed

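Libraries were made from DNase-treated total RNA with the low-input SMART-Seq v4 kit, which does not mark strand, per the labels' protocols. The authors deposited estimated counts per gene and TPM for each library. The submitters' processing notes name DRAGEN and build GRCm39; versions and other settings are not stated there. Of the deposited counts, 12.0% to 13.5% per library were not whole, so reads that match several genes can have been split. These shares are over all 55414 genes, of which only 21598 to 21929 per library had any counts, so they are larger among the latter.

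Counts were rounded and tested with edgeR (4.0.16, R 4.3.3; default filter with a minimum count of 10, TMM factors of 0.979 to 1.02, genotype as the only term, Benjamini-Hochberg adjustment over 17017 genes, threshold 0.05). The SE is the absolute log2 fold change over the square root of F. The fit was checked on simulated counts. Alternatives were 2 other scalings (RLE, upper quartile), 2 other filters (none, or a mean of 1 CPM), DESeq2 (1.42.0), limma-voom (3.58.1), robust shrinkage, a replicate block, each library left out, and levels by CPM per kilobase of the deposited gene length. Replicates were no duplicates: the chi-square over its degrees of freedom was 12.8 for Control and 27.7 for cKO.

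The members and lists were chosen with earlier results of these data known. The genes that may be named are all members, up to 4 of smallest p in each pathway list, and the 3 genes closest to 2 of the members. The results of the cell type lists are given where they are used, and those not printed in the report are these: 10 endothelial and pericyte genes summed to 281 to 334 CPM, 10 meningeal genes to 673 to 992 CPM, 10 microglia genes to 154 to 208 CPM, 6 oligodendrocyte precursor genes to 190 to 236 CPM and 6 red blood cell genes to 1875 to 4911 CPM, with overlapping groups in all but the endothelial list. For 6 choroid plexus genes the sums were 804 and 15.9 CPM in Control and 361 and 12 CPM in cKO.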

Additional observations from a re-analysis of the deposited data

How the results depend on the processing

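The number of members past the threshold was 0 under each of the 12 alternatives. Of 108 fold changes of members under them, 105 kept their sign and 3 turned. These were Dusp4, at -0.0294 to 0.617 over the 4 fits that each left out a library, and Dusp6, at -0.141 to 0.241, negative without Control 2 and without cKO 2. The cause was not tested. In members whose groups do not overlap, leaving out a library could hardly turn the sign. Over all genes, 8 were called, against 58 with no filter on low counts and 184 by DESeq2. Leaving out 1 library gave 0 to 2 calls, with 0 without Control 2, Control 3 or cKO 3 and 2 without cKO 2; these fits hold fewer samples. By CPM per kilobase, Dusp4 stood above Dusp2, so 2 of the 10 places in the order of levels changed. With the replicate number as a block, 7 genes were called in place of 8 and no member. The deviations of same-numbered libraries had a correlation of 0.0136 over genes, so the numbers were not treated as pairs. The choroid plexus sums did follow the number. They were 804 and 361 CPM in Control 2 and cKO 2, and 15.9 and 12 CPM in Control 3 and cKO 3. What the same-numbered libraries share was not tested. Depth limits Dusp16 and Dusp9 most, with 96 and 13 counts over all libraries.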

Other observations

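The deposited counts and TPM of a gene together give an apparent transcript length, scaled here on genes with 1 transcript. For Dusp8 it was 3521 and 3769 bases in Control 2 and Control 3, 4437 bases in cKO 2 and 3625 bases in cKO 3. GENCODE M21 (GRCm38) lists 2 Dusp8 transcripts, of 4804 and 853 bases. The higher value in cKO 2 is computed from the lower TPM of Dusp8 there, so it is no separate observation. It rests on 3193 counts. For Dusp16 it was 2875 and 4785 bases in Control and 932 and 6006 bases in cKO, on 6 and 12 counts in the latter, so the TPM of Dusp16 ranks cKO 2 above cKO 3 while the CPM ranks it below. For Dusp1 it lay between 1950 and 1984 bases in all libraries, near the 1990 bases of one of its annotated transcripts. The scale is rough, since the middle 90% of 1-transcript genes spanned 51% to 120% of their median in Control 2.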
